A study of Mus musculus with 9 samples.

Results

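The genes described here are the ligands and receptors of Gas6 signalling and of Cd200 signalling. They are *Gas6* and *Pros1*, the receptor genes *Axl*, *Tyro3* and *Mertk*, and the pair *Cd200* and *Cd200r1*. Every probe set whose symbol in the annotation of the array is one of these names was taken, which gave 11 probe sets of 7 genes among the 45037 probe sets and 18193 named genes that were compared. *Gas6*, *Axl*, *Tyro3* and *Cd200r1* have 2 probe sets each and the other 3 genes have 1. *Gas6* and *Cd200* are among the genes that the study listed for a change 24 h after treatment, so they were chosen by their values at 24 h against control, and those values are given as a description and without a test. The other 5 genes, with 8 probe sets, were taken for their place in the pathways.

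Gas6 is a secreted protein that carries a vitamin K-dependent Gla domain and binds Tyro3, Axl and Mertk, the TAM family of receptor tyrosine kinases. Gas6 and its relative protein S, the product of *Pros1*, bind phosphatidylserine on dying cells with the Gla domain, and TAM receptors mediate the uptake of such cells and dampen innate immune responses. Cd200 is a membrane glycoprotein of the immunoglobulin superfamily, and its receptor Cd200r1, found mainly on myeloid cells, passes on an inhibitory signal.

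The cells were MC3T3-E1, an established line of preosteoblasts from the calvaria of newborn C57BL/6 mice. All groups had first been kept for 14 days with 0.3 mM ascorbic acid and 10 mM β-glycerophosphate, then reseeded and left to attach for 24 h. The control was mock-treated, and the other groups received low-intensity pulsed ultrasound (LIPUS, 30 mW/cm2, 1.5 MHz) through the bottom of the dish for 20 min, with RNA taken 6 h or 24 h later. Each group had 3 arrays, numbered as experiments 1 to 3, and the time for which the mock-treated control was cultured is not given. Every comparison rests on 3 pairs of arrays from 1 cell line, their small number limits the precision, and nothing says whether the replicates were separate cultures beyond the repeated experiments. The arrays differed in how finely values were resolved. Those of experiment 1 held 40716 to 40936 distinct values and those of experiments 2 and 3 held 13358 to 20047, so tied values are frequent in experiments 2 and 3. The median log2 signal of an array lay between 4.89 and 5.15.

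The promoter sequences of *Gas6*, *Mertk* and *Cd200* are shown because these were the members with the largest positive differences at 24 h. They come from the RefSeq annotation of GRCm38.p6, in which 6 of the 7 genes were found, and each is the 250 bases before the annotated start of the gene, 5′ to 3′ on the strand of the gene. They lie at chr8:13494536-13494785 on the minus strand for *Gas6*, at chr2:128698665-128698914 on the plus strand for *Mertk* and at chr16:45409054-45409303 on the minus strand for *Cd200*. Capitals mark GGGCGG, the GC box, and TGACGT, part of the cAMP response element, either of them also as its reverse complement.
*Gas6*: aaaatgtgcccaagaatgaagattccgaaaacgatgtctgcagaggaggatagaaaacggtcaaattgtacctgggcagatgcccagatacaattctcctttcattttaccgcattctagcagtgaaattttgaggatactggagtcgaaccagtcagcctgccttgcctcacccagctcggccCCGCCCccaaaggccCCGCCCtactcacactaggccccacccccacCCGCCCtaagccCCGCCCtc
*Mertk*: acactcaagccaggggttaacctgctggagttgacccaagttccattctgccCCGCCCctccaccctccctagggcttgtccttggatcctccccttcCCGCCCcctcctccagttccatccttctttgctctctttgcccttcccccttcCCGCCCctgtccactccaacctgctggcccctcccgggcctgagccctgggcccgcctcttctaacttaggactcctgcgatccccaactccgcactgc
*Cd200*: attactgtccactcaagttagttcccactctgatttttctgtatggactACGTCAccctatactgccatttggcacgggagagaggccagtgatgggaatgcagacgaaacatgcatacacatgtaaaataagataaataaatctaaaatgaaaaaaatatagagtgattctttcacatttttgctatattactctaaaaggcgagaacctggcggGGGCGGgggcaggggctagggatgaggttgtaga
The *Gas6* promoter held 4 GC boxes, all as the reverse complement CCGCCC and all within the last 66 bases before the start. The *Mertk* promoter held 3, also as CCGCCC, and the *Cd200* promoter held 1 GC box and, as ACGTCA, 1 TGACGT. At least 1 GC box was present in 32.7% of 32851 mouse promoters of the same length, and TGACGT in 6.47%. The GC content was 54.8% for *Gas6*, 63.6% for *Mertk* and 42.4% for *Cd200*, against a median of 52.4% for all promoters. The promoters of *Axl*, *Tyro3* and *Pros1* held 1, 3 and 5 GC boxes, some of those of *Pros1* overlapping. None of the 6 promoters held CCAAT on either strand, a motif present in 33.8% of promoters. None held the TATA box TATAAA, present in 12.4%. None held TGANTCA, the binding motif of AP-1 factors, present in 6.75%. CANNTG, the E-box, had 2 matches in *Cd200*, 1 each in *Gas6* and *Pros1*, and was present in 66.2% of promoters. These are matches of letters in a fixed window and no binding was measured.

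*Gas6*, the ligand of all TAM receptors, had a higher signal at 24 h and nearly the same signal at 6 h as in the control. At probe set 1417399_at the log2 signals in experiments 1, 2 and 3 were 10.19, 10.52 and 10.16 in the control. They were 10.13, 10.58 and 10.17 at 6 h after LIPUS and 10.71, 10.98 and 10.72 at 24 h. All arrays at 24 h lay above all arrays of the control and of 6 h. The log2 fold change at 24 h was 0.51 (SE 0.04), and the ratios to the control of the same experiment were 1.43, 1.38 and 1.47, with a mean of 1.43 ± 0.0476 (SD, n = 3). At 6 h the log2 fold change was 0.00 (SE 0.04, limma adjusted p = 1). *Gas6* was the only member whose groups at 24 h and in the control did not overlap, which was the case, with the higher values at 24 h, for 0.901% of all probe sets. As *Gas6* was chosen by its values at 24 h, this is a description. In such bulk samples, a change in the share of cells that express a gene and a change in RNA per cell cannot be told apart.

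The other probe set of *Gas6*, 1459585_at, disagreed with the first in direction. Its log2 signals were 4.67, 4.78 and 4.13 in the control, 4.59, 4.76 and 4.13 at 6 h and 4.62, 4.60 and 3.93 at 24 h. The values at 24 h were slightly below those of the control in all 3 experiments, with a log2 fold change of −0.15 (SE 0.06), and the groups overlapped. This probe set ranked between the lowest 32.2% and 47% of all probe sets on the arrays, whereas 1417399_at ranked between 93.1% and 96.3%. Ranks describe each probe set on its own array and are not levels of transcripts.

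*Pros1* encodes protein S, an anticoagulant cofactor in plasma and a ligand of Tyro3 and Mertk. Its log2 signals were 9.13, 9.23 and 8.55 in the control, 9.24, 9.29 and 8.55 at 6 h and 9.25, 9.36 and 8.82 at 24 h. The value at 24 h was the highest in each experiment, but experiment 3 lay below the other experiments throughout and the groups overlapped. The log2 fold change at 24 h was 0.17 (SE 0.05, 95% interval 0.06 to 0.29, limma adjusted p = 0.172), which did not pass the threshold after adjustment over all probe sets. The differences in experiments 1, 2 and 3 were 0.12, 0.13 and 0.27. At 6 h the log2 fold change was 0.05 (SE 0.05, adjusted p = 0.959), and the control and 6 h values of experiment 3 were tied.

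**Figure D1:**
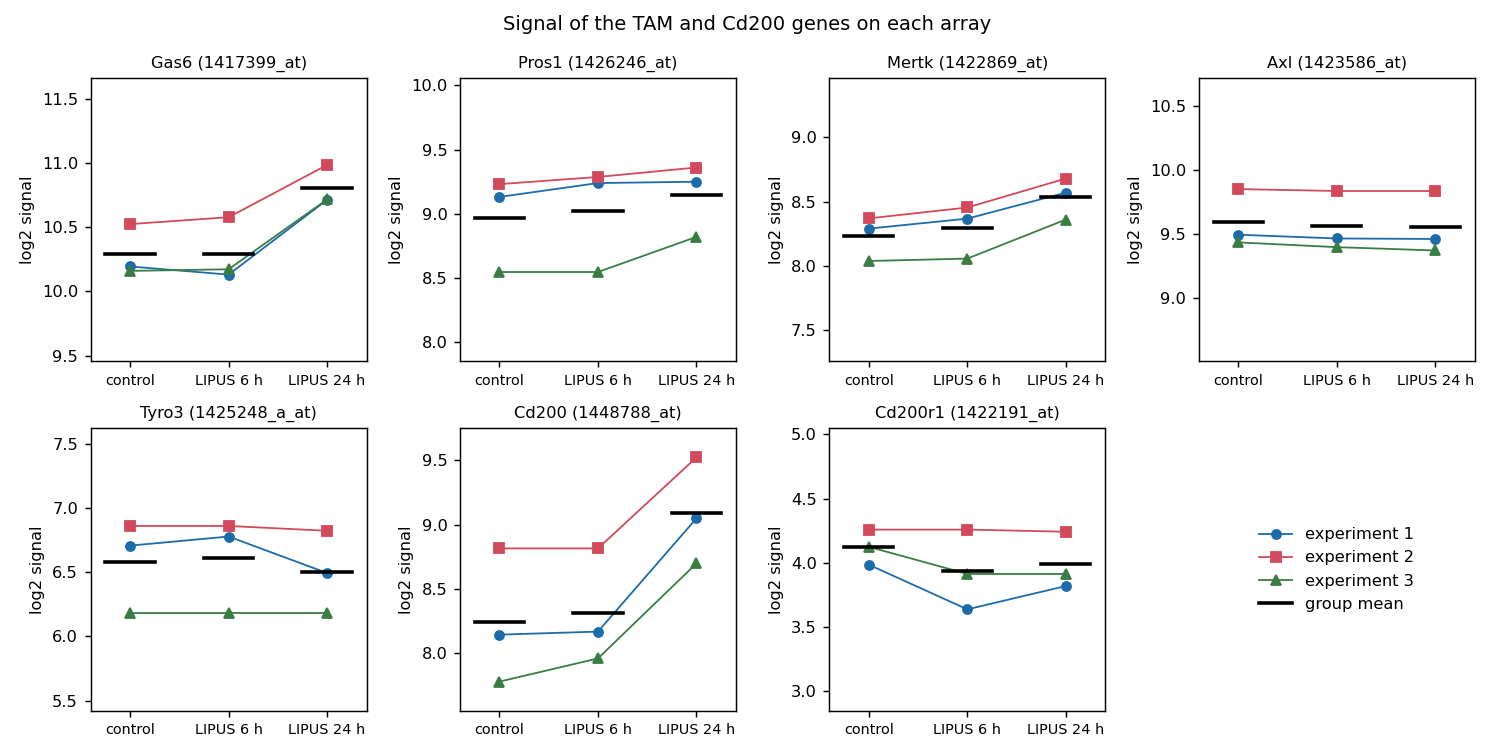
Log2 signal (vertical axis, 2.2 log2 units in every panel) of the probe set with the highest mean of each gene, in the control and at 6 h and 24 h after LIPUS. Points are single arrays, coloured lines join the arrays of 1 experiment, and black bars are group means. *Gas6*, *Mertk* and *Cd200* were higher at 24 h in each experiment, while *Axl* lay on nearly level lines.

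Among the receptors, *Mertk*, which mediates the engulfment of apoptotic cells by phagocytes, was the member that rose at 24 h among the genes the study did not list. The log2 signals of its probe set 1422869_at were 8.29, 8.37 and 8.04 in the control, 8.37, 8.45 and 8.06 at 6 h and 8.57, 8.68 and 8.36 at 24 h. Each experiment had its highest value at 24 h, although the value of experiment 3 at 24 h was just below the control of experiment 2, so that the groups overlapped. The log2 fold change was 0.30 (SE 0.03, 95% interval 0.23 to 0.38, limma adjusted p = 0.00582). The ratios were 1.21, 1.24 and 1.25, with a mean of 1.23 ± 0.0188 (SD, n = 3). Of the 8 probe sets of the genes that the study did not list, 1 passed the threshold of an adjusted p under 0.05 in this comparison. Of all probe sets, 2.73% passed in either direction and 1.8% on the higher side. With experiment 1 left out the adjusted p of *Mertk* was 0.237 and with experiment 2 left out it was 0.208, at log2 fold changes of 0.32 and 0.30. It was 1 in the fit without the replicate block.

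Between the times, *Mertk* was also higher at 24 h than at 6 h, by 0.24 (SE 0.03, adjusted p = 0.0151). This call was kept in 4 of 11 alternatives, and its adjusted p was 0.353 without experiment 1, 0.356 without experiment 2 and 0.0568 without the intensity trend. At 6 h it was higher than the control in 3 of 3 experiments, by 0.06 (SE 0.03, adjusted p = 0.959), which did not pass the threshold. The level at 24 h stood above both other groups within each experiment, and the control and 6 h did not differ beyond their spread.

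*Axl*, the TAM receptor with Gas6 as its main ligand, was nearly level. At probe set 1423586_at the log2 signals were 9.50, 9.85 and 9.44 in the control, 9.47, 9.84 and 9.40 at 6 h and 9.46, 9.84 and 9.37 at 24 h. The difference of 24 h from the control was −0.06 in experiment 3 and nearer to 0 in the others, and experiment 2 was higher than the others in all groups. The log2 fold change at 24 h was −0.04 (SE 0.02, adjusted p = 0.605), and its 95% interval reached from −0.09 to 0.02. That interval and the interval of *Mertk* do not overlap, and the difference between the genes was not tested. The other probe set, 1438621_x_at, ranked between the lowest 1.5% and 5.2% of probe sets, had 1 tied value on all arrays of experiment 2, and gave −0.10 (SE 0.07, adjusted p = 0.622).

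*Tyro3*, the TAM receptor best known from the nervous system, did not pass the threshold at either probe set. The log2 signals of 1425248_a_at were 6.71, 6.86 and 6.18 in the control, 6.78, 6.86 and 6.18 at 6 h and 6.49, 6.82 and 6.18 at 24 h. The value at 24 h was lower in experiments 1 and 2 and tied in experiment 3, and the groups overlapped. The log2 fold changes at 24 h were −0.08 (SE 0.06, adjusted p = 0.642) at this probe set and −0.04 (SE 0.05, adjusted p = 0.751) at 1425249_a_at. Both probe sets had a single value on all 3 arrays of experiment 3, so that only experiments 1 and 2 carried information on them. At 6 h they differed in sign, with 0.02 and −0.05, both within their standard errors or close to them.

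*Cd200* had the largest difference of the 7 genes at 24 h. Its log2 signals at 1448788_at were 8.14, 8.81 and 7.78 in the control, 8.17, 8.81 and 7.96 at 6 h and 9.05, 9.52 and 8.70 at 24 h. Within each experiment the array at 24 h was well above both others, but the control of experiment 2 exceeded the 24 h value of experiment 3, and the groups overlapped. The log2 fold change was 0.84 (SE 0.05), and the ratios were 1.87, 1.63 and 1.89, with a mean of 1.80 ± 0.144 (SD, n = 3). *Cd200* was the only member with ratios of at least 1.5 in all 3 experiments, which 0.0955% of probe sets reached on the higher side. This limit is the rule by which the study listed its genes, *Cd200* among them, so that its passing is a description. *Gas6*, with ratios between 1.38 and 1.47, was the member next below that limit on these values, although the study listed it too. The mean ratio that the study itself gave for *Gas6* at 24 h was above 1.5. Its real-time PCR also found *Gas6* and *Cd200* significantly higher after LIPUS. At 6 h the log2 fold change of *Cd200* was 0.07 (SE 0.05, adjusted p = 0.959), of which experiment 3 gave 0.18, experiment 1 gave 0.02 and experiment 2 gave tied values.

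*Cd200r1*, the receptor of Cd200, gave low signals. The log2 signals of 1422191_at were 3.99, 4.26 and 4.12 in the control, 3.64, 4.26 and 3.91 at 6 h and 3.82, 4.24 and 3.91 at 24 h. The probe set ranked between the lowest 30.9% and 36.7% of probe sets, and 1439703_at ranked between the lowest 0.5% and 6.1%. At 24 h the probe sets differed in sign, with log2 fold changes of −0.13 (SE 0.08, adjusted p = 0.568) at 1422191_at and 0.10 (SE 0.06, adjusted p = 0.613) at 1439703_at. At 6 h the log2 fold change of 1422191_at was −0.19 (SE 0.08, limma adjusted p = 0.959), the only one of the members at 6 h with an unadjusted p under 0.05. The fit did not call *Cd200r1* in any comparison.

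**Figure D2:**
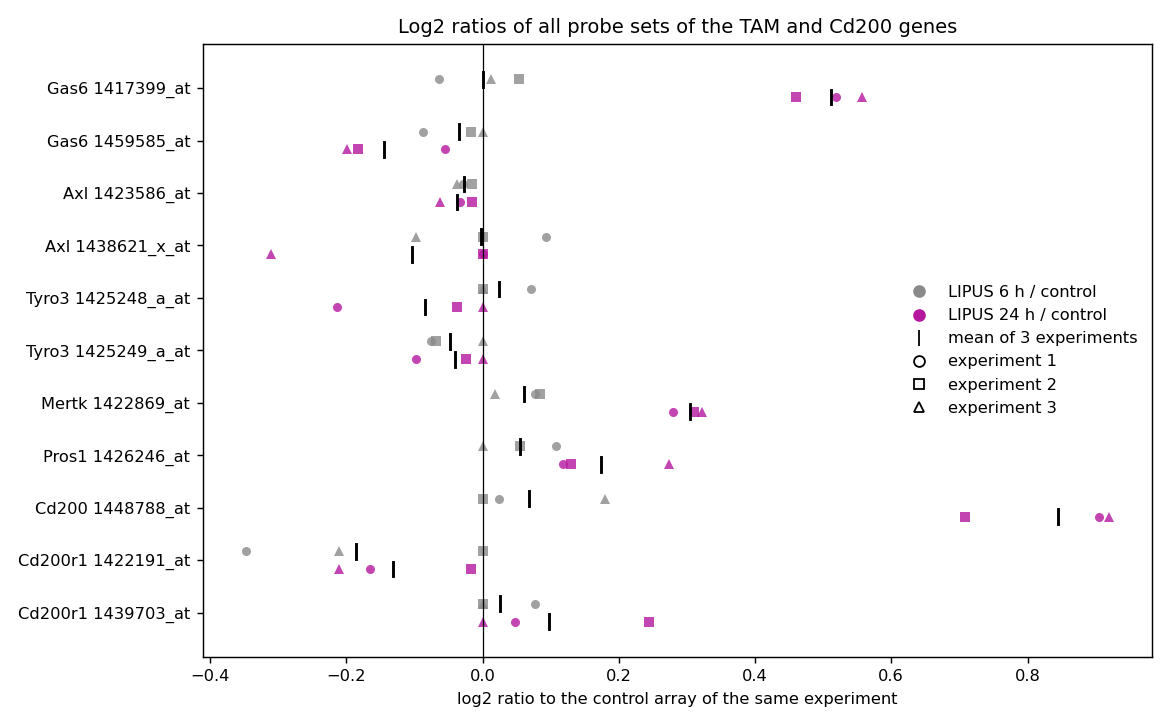
Log2 ratio to the control array of the same experiment (horizontal axis) for all 11 probe sets, with grey symbols for LIPUS 6 h and magenta symbols for LIPUS 24 h, 1 symbol shape for each experiment and a black tick for the mean. The ratios at 24 h were above 0 in all experiments for 1417399_at of *Gas6*, *Mertk*, *Pros1* and *Cd200*, and the 2 probe sets of *Gas6* lay on opposite sides of 0.

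At 24 h 4 of the 11 probe sets, those of *Mertk*, *Pros1* and *Cd200* and 1 of *Gas6*, were higher in all 3 experiments, as were 10.3% of all probe sets. The counted probe sets of *Gas6* and *Cd200* were chosen by these values, so that this count is a description. At 6 h none of the 11 member probe sets and none of all 45037 passed the threshold in limma, where 1575 had an unadjusted p under 0.05. The percentage called was 0 among all probe sets. By the methods' t-test 53 probe sets had an unadjusted p under 0.05 at 6 h and 0 passed after Benjamini-Hochberg adjustment. The median log2 fold change over the 7 genes, each at its probe set with the highest mean, was 0.17 at 24 h and 0.02 at 6 h, and over all probe sets it was 0.00 at both times. The 7 genes include *Gas6* and *Cd200*, so that the median at 24 h is a description. The other 5 genes gave 0.30 (*Mertk*), 0.17 (*Pros1*), −0.04 (*Axl*), −0.08 (*Tyro3*) and −0.13 (*Cd200r1*) at 24 h. In the comparison of 24 h with 6 h, which shares the 24 h arrays with the comparison against the control, *Gas6* had a log2 fold change of 0.51, *Cd200* of 0.78 and *Pros1* of 0.12 (adjusted p = 0.471). The values of *Gas6* and *Cd200* rest on the arrays they were chosen by and are a description. In that comparison 2.02% of all probe sets were called, and of the 8 probe sets of the genes that the study did not list only that of *Mertk*.

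The profiles of the members over the 9 arrays, after the mean of each experiment was taken out, were set against those of 16515 probe sets with 1 symbol and a mean in the upper 40%. Pearson's r between *Gas6* and *Cd200* was 0.990, and *Cd200* stood at place 38 in the order of likeness to *Gas6*. The value of *Mertk* was 0.965 with *Gas6* and 0.966 with *Cd200*, and that of *Pros1* with *Gas6* was 0.802. *Axl* and *Tyro3* gave −0.647 and −0.677 with *Gas6*. The genes most like *Gas6* were *Mmp9*, *Scarf2*, *Dnajc5*, *Zfp593* and *Dbp*, with r between 0.997 and 0.999, and those most like *Cd200* were *Mylk*, *Nip7*, *Fam107b*, *Nrep* and *Cmbl*, with r between 0.996 and 0.998. Likeness in size was not required, as the log2 fold changes of these genes at 24 h lay between 0.10 for *Zfp593* and 0.77 for *Cmbl*. All these values share the same arrays and the single step between 6 h and 24 h, and any gene with such a step obtains a high r, so that they are descriptions.

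The genes around the pathways were taken from lists drawn up with earlier results of these data known, each gene at its probe set with the highest mean. In the comparison of 24 h with the control 4.14% of all genes were called, 2.57% higher and 1.57% lower. Every call named from the lists was lost with experiment 1 left out, where no probe set was called, and the methods' t-test called none after adjustment. With experiment 2 left out, *Thbs1* was the only one of the genes *Lgals3*, *Ggcx*, *Vkorc1*, *Nqo1*, *Pik3r1*, *Thbs1*, *Nt5e*, *Cd47*, *Gas2l3*, *Fgfr1*, *Fgfr2* and *Flt1* to stay below the threshold. Of the 5 ligands reported for TAM receptors, *Lgals3* fell besides the difference of *Gas6*, and the median of the list was 0.00. *Lgals3* encodes galectin-3, a lectin that has been reported to bind Mertk. Its log2 signals were 12.68, 12.78 and 12.52 at 24 h, against 12.96, 13.03 and 12.82 in the control, and the groups did not overlap. The log2 fold change was −0.28 (SE 0.02, limma adjusted p = 0.00142).

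The vitamin K cycle supplies the reduced vitamin K with which the carboxylase modifies the Gla domains of Gas6 and protein S. Of its 6 measured genes 2 rose and 1 fell at 24 h, and the median was 0.08. *Ggcx*, the gamma-glutamyl carboxylase, had log2 signals of 7.18, 7.69 and 7.25 at 24 h, against 6.99, 7.32 and 6.66 in the control. It was higher in each experiment, by 0.19, 0.37 and 0.59, with overlapping groups, and its log2 fold change was 0.39 (SE 0.07, adjusted p = 0.0400). *Vkorc1*, the vitamin K epoxide reductase that is the target of warfarin, had 11.91, 11.93 and 11.48 at 24 h, against 11.65, 11.73 and 11.35 in the control, with a log2 fold change of 0.19 (SE 0.03, adjusted p = 0.0350). Both calls were close to the threshold. The adjusted p of *Ggcx* was 0.0615 to 0.376 with any one of the experiments left out, and that of *Vkorc1* was 0.338 without experiment 1 and 0.346 without experiment 2. The other probe set of *Ggcx* gave 0.11 (SE 0.09, adjusted p = 0.672).

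*Nqo1*, a reductase of quinones, forms of vitamin K among them, that is better known as a target of the oxidative stress factor Nrf2, fell. Its log2 signals were 8.95, 9.35 and 8.99 at 24 h, against 9.59, 9.97 and 9.44 in the control. The groups did not overlap, and the log2 fold change was −0.57 (SE 0.04, adjusted p = 0.00142). *Nqo1* is among the genes the study listed on these samples, so that its call is not independent evidence. Of 11 other genes of Gla proteins none was called at 24 h in limma, and 2 had an unadjusted p under 0.05. The largest values were 0.21 (SE 0.11, adjusted p = 0.486) for *F7*, coagulation factor VII, and −0.19 (SE 0.08, adjusted p = 0.375) for *Proc*, protein C, and the median of the list was 0.00.

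**Figure D3:**
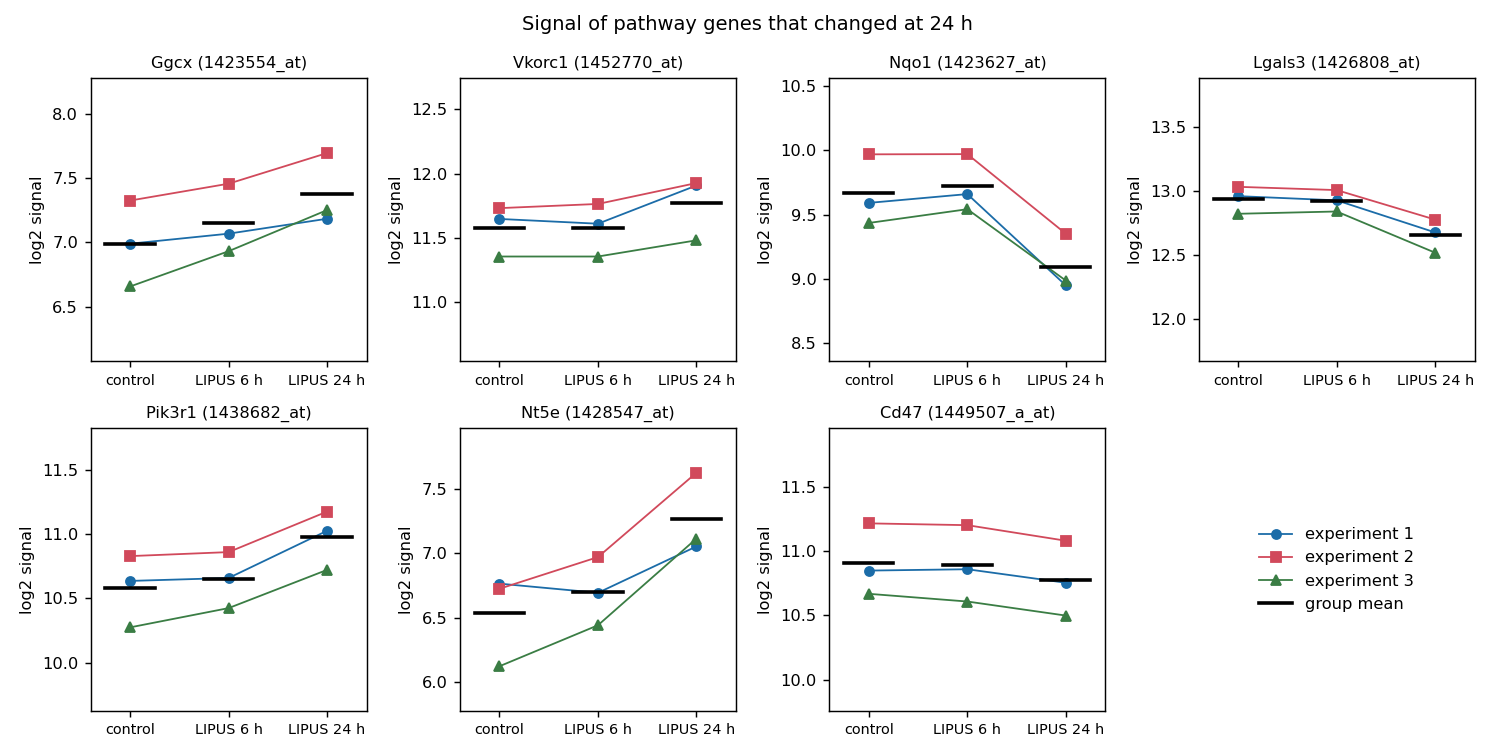
Log2 signal (vertical axis, 2.2 log2 units in every panel) of the called genes of the vitamin K cycle, of *Lgals3* and *Pik3r1*, and of the surface proteins *Nt5e* and *Cd47*, in the control and at 6 h and 24 h after LIPUS. Points are single arrays, coloured lines join the arrays of 1 experiment and black bars are group means. *Nqo1* and *Lgals3* were lower at 24 h in each experiment, and the values of these genes at 6 h lay close to the control.

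Of 24 genes for the shedding of TAM receptors and for their signal transduction 1 rose and none fell at 24 h, with a median of −0.02. This was *Pik3r1*, the regulatory subunit of phosphoinositide 3-kinase, with log2 signals of 11.03, 11.18 and 10.72 at 24 h, against 10.64, 10.83 and 10.27 in the control. It was higher in each experiment, and the log2 fold change was 0.39 (SE 0.03, adjusted p = 0.00171). Its probe set 1425515_at was also called, with 0.30 (SE 0.05, adjusted p = 0.0228), while 1425514_at gave 0.32 (SE 0.12, adjusted p = 0.305) and 1451737_at gave 0.04 (SE 0.06, adjusted p = 0.808). Counting any probe set, which called 5.23% of all genes, the list had 2 called genes, because *Rac1*, a small GTPase of the engulfment machinery, was lower at 1 of its probe sets, with a log2 fold change of −0.16 (SE 0.03, adjusted p = 0.0349).

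Of 27 genes for the exposure of phosphatidylserine and the uptake of apoptotic cells 1 rose, with a median of −0.01. This was *Thbs1*, thrombospondin 1, with a log2 fold change of 0.90 (SE 0.05, adjusted p = 5.18e-04) and 0.83 (SE 0.17, adjusted p = 0.0607) at its other probe set with 1 symbol. The study listed *Thbs1* on these samples through a further probe set, which the annotation pairs with several genes and which was not used here, so that the call of the gene is not independent evidence. Counting any probe set there were 4 called genes of 27, all higher, beside the 5.23% of all genes called in this way. The additional genes were *Gulp1*, an adaptor of engulfment receptors, with 0.50 (SE 0.07, adjusted p = 0.0146) and 0.35 (SE 0.05, adjusted p = 0.0172) at 2 probe sets, *Tmem30a*, a subunit of phospholipid flippases, with 0.48 (SE 0.08, adjusted p = 0.0240), and *Calr*, calreticulin, with 0.18 (SE 0.03, adjusted p = 0.0166). These were not the probe sets with the highest mean of their genes.

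Around *Cd200*, none of 10 genes of the receptor family and its signal transduction was called in limma, none had an unadjusted p under 0.05, and the median was −0.05. The largest values beside *Cd200r1* were −0.13 (SE 0.06, adjusted p = 0.467) for *Dok1*, an adaptor, and −0.12 (SE 0.07, adjusted p = 0.563) for *Cd200r3*. *Dok1* had tied values at 24 h and in the control in experiment 3. The other probe set of *Cd200r3* differed in sign, with 0.06 (SE 0.09, adjusted p = 0.826). Both probe sets of *Cd200r3* gave low signals, with a mean log2 signal of 2.41 at 24 h. Of 18 other surface proteins that restrain immune cells 1 rose and 1 fell. *Nt5e*, the ecto-5'-nucleotidase CD73 that forms adenosine, had log2 signals of 7.05, 7.63 and 7.12 at 24 h, against 6.76, 6.72 and 6.12 in the control. The groups did not overlap, and the log2 fold change was 0.73 (SE 0.12, adjusted p = 0.0306), but its other probe sets gave −0.01 (SE 0.09) and −0.04 (SE 0.06). Its adjusted p was between 0.0572 and 0.349 with any one of the experiments left out. *Cd47*, the signal against phagocytosis, was called lower at 1 of 5 probe sets, with a log2 fold change of −0.13 (SE 0.02, adjusted p = 0.0331). Its other probe sets gave 0.02 (SE 0.03), 0.04 (SE 0.03), −0.02 (SE 0.04) and 0.28 (SE 0.16), none of them called. The call was also lost with any one of the experiments left out (adjusted p 0.107 to 0.448).

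**Figure D4:**
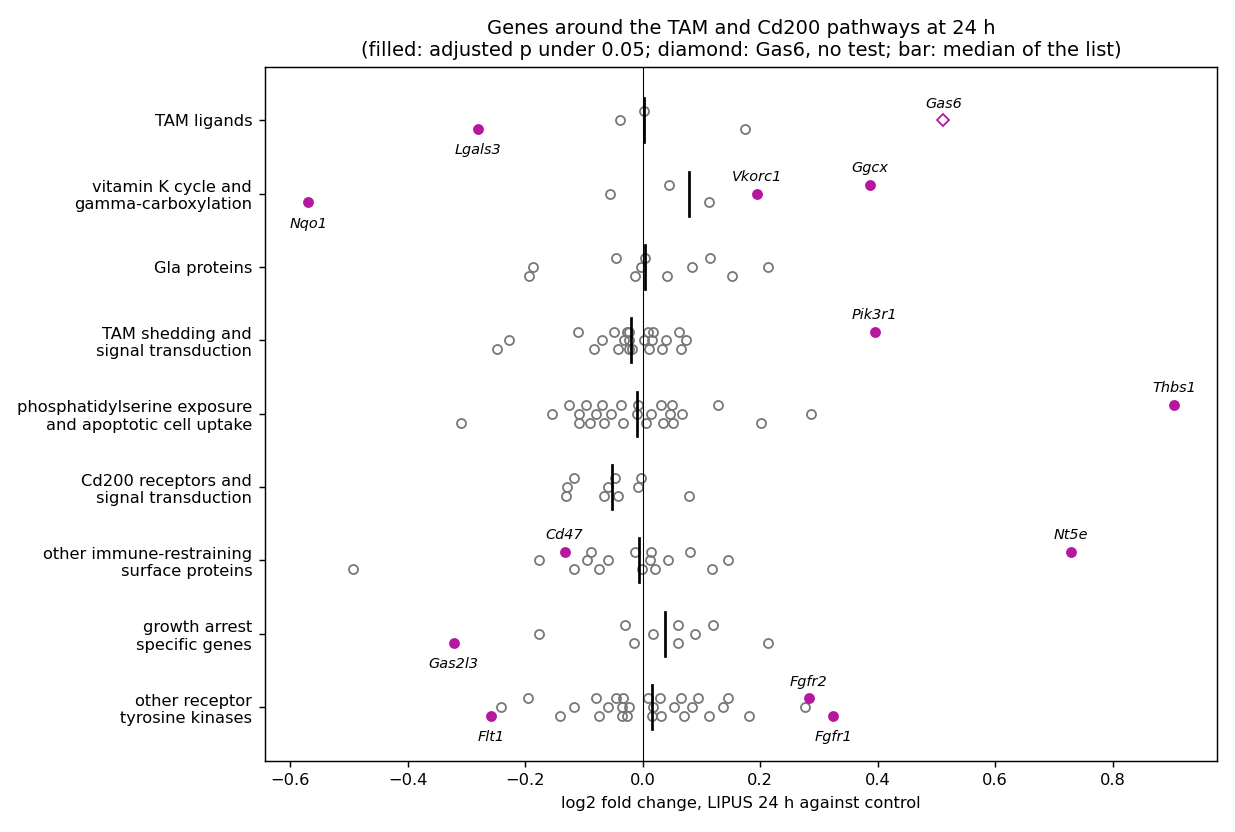
Log2 fold change at 24 h against control (horizontal axis) of the genes of 9 lists, each circle a gene at its probe set with the highest mean. Filled circles passed the threshold in limma, the open diamond is *Gas6*, which is given without a test, and black bars are medians, which lay between −0.05 and 0.08.

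*Gas6* is also 1 of the growth arrest specific genes, a group named for their induction in resting fibroblasts and not for a shared function. Of 10 other genes with such names or induced by growth arrest, *Gas2l3*, a cytoskeletal linker protein, fell at 24 h, with log2 fold changes of −0.32 (SE 0.05, adjusted p = 0.0301) and −0.39 (SE 0.07, adjusted p = 0.0361) at 1437244_at. *Gas5*, a long non-coding RNA, was higher at 1 probe set, with 0.37 (SE 0.06, adjusted p = 0.0331), which was not its probe set with the highest mean. Of 31 other receptor tyrosine kinases 2 rose and 1 fell, with a median of 0.02. *Fgfr1* and *Fgfr2*, receptors of fibroblast growth factors, rose by 0.32 (SE 0.03, adjusted p = 0.00522) and 0.28 (SE 0.03, adjusted p = 0.00725), a size like that of *Mertk*. The other probe sets of *Fgfr1* gave 0.48 (SE 0.07, adjusted p = 0.0170) and 0.40 (SE 0.18, adjusted p = 0.427). Those of *Fgfr2* gave 0.20 (SE 0.06, adjusted p = 0.167) and 0.01 (SE 0.12, adjusted p = 0.987) and were not called. *Flt1*, a receptor of vascular endothelial growth factor, fell, with −0.26 (SE 0.05, adjusted p = 0.0482), and its other probe sets gave −0.05 to 0.00. Counting any probe set, 5 of the 31 receptor kinases were called, with *Ddr1* at −0.26 (SE 0.04, adjusted p = 0.0281) and *Egfr* at 0.22 (SE 0.03, adjusted p = 0.0165) added. The study listed *Ddr1* as lower on these samples through another probe set, so that its call is not independent evidence. At 6 h none of these lists had a called gene.

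The label of the cells and the presence of other cell types were checked with marker genes. *Col1a1* gave a log2 signal of 12.8 at 24 h and 12.7 in the control, and *Sp7*, a transcription factor of osteoblasts, gave 6.90 and 6.97. *Alpl*, the alkaline phosphatase of osteoblasts, was low, with 5.30 at 24 h and 5.02 in the control, and none of 10 osteoblast markers was called, while 3 had an unadjusted p under 0.05. *Mertk*, *Gas6* and *Cd200r1* are also expressed by macrophages. Of 15 myeloid markers 1 rose at 24 h, which was *Lyz2*, lysozyme, with a log2 fold change of 0.49 (SE 0.06, adjusted p = 0.00877). The study listed *Lyz1* as higher on these samples and gave it jointly with *Lyz2* among its annotated genes. The call of *Lyz2* is therefore not independent evidence. The defining markers were low and level, with 2.84 at 24 h and 2.86 in the control for *Ptprc*, 3.66 and 3.65 for *Cd68* and 3.66 and 3.67 for *Adgre1*. The summed linear signal of the list was 541 to 714 at 24 h, against 534 to 667 in the control. Of 9 osteoclast markers *Ctsk*, cathepsin K, rose by 0.40 (SE 0.03, adjusted p = 0.0017), while *Acp5* was low, with 3.39 at 24 h and 3.37 in the control. The other 8 were not called, and the median of the list was −0.003. The summed linear signal was 1812 to 2223 at 24 h against 1576 to 1885 in the control. This sum includes *Ctsk* and is not a separate result. None of 8 endothelial markers was called or had an unadjusted p under 0.05, with sums of 133 to 165 at 24 h and 125 to 166 in the control. A part of such cells in the values of *Mertk*, *Gas6* or *Cd200* was not tested.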

How the data were processed

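Levels of mRNA were measured with whole-genome mouse arrays (Affymetrix), hybridized with cRNA from 500 ng of total RNA of mock-treated control cells and of cells at 6 h and 24 h after LIPUS (3 arrays each). The deposited values are log2 signals, which the authors obtained by RMA (robust multi-array average), per the labels. The version and settings are not given in the sources used here. The values were used without further transformation. The array has 45101 probe sets, and 64 of them, hybridization controls, were not compared. Gene symbols of the platform annotation were brought up to date through gene identifiers. Of the compared probe sets, 34945 had 1 symbol, 932 had several and 9160 had none, and members and named genes were taken only from those with 1.

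Comparisons were fitted with limma 3.58.1 in R 4.3.3 (lmFit, then eBayes with a trend in intensity). The model covered the 9 arrays and had the replicate number as a block, which left 4 residual degrees of freedom beside 3.00 prior degrees of freedom. Benjamini-Hochberg adjustment was made over 45037 probe sets in each of 3 comparisons, and an adjusted p under 0.05 was a call. Standard errors and 95% intervals come from this fit. The pairing by replicate number rests on the numbers in the labels and on the data. Deviations of arrays from their group means correlated between 0.70 and 0.93 for the 9 pairs with the same number, and between −0.67 and 0.01 for the other pairs. Deviations cancel within a group, so positive values for the same number lower those of the other pairs by construction. Whether the correlations reflect a shared experiment or shared processing of the arrays was not tested.

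All members are named. Of each pathway list up to 4 called genes with the largest changes are named or, where none was called, up to 2 by value. Genes called only at another probe set were named after their values were seen. The members and the lists were chosen with earlier results of these data known. A few members of the lists are not reported here. The scripts were tested on simulated data. Alternatives to the block, the trend, the probe sets, the normalization, the arrays, the test and the threshold were run.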

Additional observations from a re-analysis of the deposited data

Results flagged for a closer look

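The following differences between the effect at 24 h and the effect at 6 h passed the threshold in the comparison of 24 h with 6 h (limma, adjusted over all probe sets). The control arrays cancel in this difference. All calls in this comparison, those below included, were lost with experiment 1 left out and without the replicate block. The methods' t-test called none after adjustment. *Mertk* differed by 0.24 on the log2 scale, from effects of 0.06 at 6 h and 0.30 at 24 h (adjusted p = 0.0151, which was 0.353 without experiment 1 and 0.356 without experiment 2). *Lgals3* differed by −0.27 (adjusted p = 0.00214), *Nqo1* by −0.63 (adjusted p = 0.00143) and *Flt1* by −0.37 (adjusted p = 0.0156). For *Nqo1* and *Flt1* every experiment had a lower signal at 24 h and a higher signal at 6 h than its control. The effects at 6 h were small, 0.06 for *Nqo1* and 0.11 for *Flt1*, and were not called. In experiment 2 the log2 signal of *Nqo1* was 9.97 both at 6 h and in the control. *Thbs1* differed by 0.76 (adjusted p = 0.00109), *Pik3r1* by 0.33 (adjusted p = 0.00402), *Fgfr2* by 0.22 (adjusted p = 0.0213), *Vkorc1* by 0.20 (adjusted p = 0.0409) and *Fgfr1* by 0.19 (adjusted p = 0.0399). *Gas2l3* differed by −0.48 (adjusted p = 0.00850), with effects of 0.15 at 6 h and −0.32 at 24 h. *Nqo1*, and *Thbs1* through another probe set, had been listed by the study for their values at 24 h. None of the groups, which hold 3 arrays each, was large enough for a test of single outlying arrays.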

How the results depend on the processing

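The signs of the differences of *Gas6*, *Mertk*, *Pros1* and *Cd200* at 24 h were the same in all 11 alternatives, with log2 fold changes of 0.46 to 0.54, 0.27 to 0.32, 0.12 to 0.20 and 0.73 to 0.91. Most of these signs could not turn. The log2 fold change is unchanged by construction without the block or the trend, among the upper 40%, with only the groups compared and in the t-tests. With 1 experiment left out the sign was fixed, because these genes were higher in every experiment. Only quantile normalization and array weights could have turned it. The calls did depend on the fit. At 24 h against control, 3 member probe sets and 1229 of all probe sets were called. Of these 3, *Gas6* and *Cd200* were chosen by their values at 24 h, so that the counts of members are a description. Without the replicate block these counts were 0 and 1, with only the arrays of the groups compared 0 and 5, and by the methods' t-test 1 and 351 at an unadjusted p under 0.05 and 0 and 0 after adjustment. They were 6 and 9276 with array weights, whose estimation stopped before it converged, and 1 and 59 by the rule of 1.5-fold or more in all experiments. Of all probe sets, 522 were called without the intensity trend, 1914 among the upper 40% by mean and 407 at an adjusted p under 0.01. Leaving out 1 experiment gave 0 to 1439 calls among all probe sets and 0 to 3 among the members, with 0 of both without experiment 1. At 24 h against 6 h, where 3 member probe sets and 909 of all probe sets were called, the counts were 0 and 0 without the block, 0 and 8 with only the groups compared, 1 and 299 by the t-test unadjusted, 0 and 0 by the t-test adjusted, 5 and 5482 with array weights and 1 and 52 by the 1.5-fold rule. Of all probe sets, 354 were called without the trend, 1384 among the upper 40%, 299 at an adjusted p under 0.01, and 0 to 1498 with 1 experiment left out, the members ranging from 0 to 3. At 6 h no call became 38 without experiment 3 and 53 by the unadjusted t-test, with no member in either case. Counting any probe set of a gene in place of that with the highest mean raised the lists to 2 called genes for TAM shedding and signal transduction, 4 for phosphatidylserine and uptake, 2 for growth arrest genes and 5 for other receptor kinases. *Mertk* lost its call at 24 h in 6 of 11 alternatives, and *Pros1* gained one with array weights (adjusted p = 0.0132). The sign turned for *Gas6* at 6 h under quantile normalization (−0.00809), and with 1 experiment left out (range −0.0253 to 0.03295, negative without experiment 2 and, at −0.00505, without experiment 3), and for *Cd200r1* at 24 h against 6 h with 1 experiment left out (range −0.0083 without experiment 1 to 0.0908 without experiment 2). The causes were not tested, apart from the fewer residual degrees of freedom that leaving out arrays brings by construction. All fits rest on 3 arrays a group with tied values in experiments 2 and 3, and the probe sets with the lowest signals have the least information.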
